A study of Homo sapiens with 2 samples.

Results

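The 7 genes described here, SLC19A1, FPGS, GGH, TYMS, TPMT, HPRT1 and NT5C2, encode proteins on which the response of leukemic cells to methotrexate and to the thiopurines mercaptopurine and thioguanine depends. They were listed by name for that role, with no threshold on a value but with earlier results of these data known, and were matched by symbol to gene identifiers, 7 of the 57773 genes in the count data. Their transcripts were measured by RNA sequencing in REH and 697, a pair of human lines of B-cell precursor acute lymphoblastic leukemia (B-ALL), with a single library each. In REH the ETV6/RUNX1 fusion is present and the other ETV6 allele is lost, whereas 697 lacks ETV6/RUNX1. Each line is a single established line, grown in the same medium with serum, and the labels name no drug treatment. With 1 library per line the spread between cultures is unknown, so no test was possible and every ratio compares these libraries only. In bulk RNA, fewer cells expressing a gene and less of its RNA per cell cannot be told apart. The levels are those of transcripts, and enzyme amount, enzyme activity and drug response were not measured in these libraries.

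Methotrexate is a folate analog that is carried into the cell, lengthened with glutamate residues that keep it there, and blocks enzymes of the folate cycle and, in its glutamylated form, thymidylate synthase and enzymes of purine synthesis. Mercaptopurine and thioguanine are purine analogs that become active only when the purine salvage pathway turns them into nucleotides, and they are inactivated by methylation, by oxidation or by removal of the phosphate. Both drug classes are mainstays of treatment for childhood acute lymphoblastic leukemia, and inherited or acquired changes in several of these genes are known to alter the dose that patients tolerate or the response of relapsed leukemia.

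On GRCh38, in GENCODE 44, SLC19A1 (ENSG00000173638) lies on chromosome 21 from 45493572 to 45573365 and FPGS (ENSG00000136877) on chromosome 9 from 127794597 to 127814327. GGH (ENSG00000137563) lies on chromosome 8 from 63014881 to 63039407 and TYMS (ENSG00000176890) on chromosome 18 from 657653 to 673578. TPMT (ENSG00000137364) lies on chromosome 6 from 18128311 to 18155077 and HPRT1 (ENSG00000165704) on chromosome X from 134460165 to 134520513. NT5C2 (ENSG00000076685) lies on chromosome 10 from 103087185 to 103277605. FPGS, TYMS and HPRT1 are on the plus strand and the others on the minus strand, and all 7 are protein-coding.

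The libraries held 45188375 reads assigned to genes in REH and 41097497 in 697. Levels are given as CPM, the read count normalised to the scaled library total, and a count of 3 reads, taken as the smallest level the depth can show, corresponded to 0.0597 CPM in REH and 0.0812 CPM in 697. All intervals are 95% intervals that cover counting error only. The label of a B-precursor leukemia was checked against marker genes. Of 14 B-precursor markers 13 were matched, and a count of 10 reads or more was found for 12 in each library. PAX5, a transcription factor of the B lineage, stood at 792 CPM in REH and 1224 CPM in 697. VPREB1, a surrogate light chain gene, had 3 reads in REH and 10039 in 697, and CD34 had 26 reads in REH and 0 in 697. The summed level of the T-cell markers was 1.03 CPM in REH and 0.298 CPM in 697, with CD3D, CD2, CD4 and CD7 at 0 in both, CD3E at 45 and 0 reads and CD8A at 0 and 10, and that of the erythroid markers was 0.517 and 0.541 CPM. The myeloid markers summed to 261 CPM in REH and 2.30 CPM in 697, and 4 of the 5 tested passed a log2 ratio of 1 as higher in REH. MPO, the myeloperoxidase gene, had 12643 and 12 reads, ITGAM, an integrin of myeloid cells, had 403 and 0, and CD33 had 22 and 1, while ELANE, S100A8 and S100A9 were at 0 in both libraries. The part of the myeloid marker difference in the results was not tested.

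All 7 genes were among the 19145 genes tested, which are those that reached 10 reads in 1 of the libraries or in both. SLC19A1, TPMT and NT5C2 were higher in REH, and FPGS, GGH, TYMS and HPRT1 were higher in 697. The log2 ratio is that of REH over 697, with 0.5 reads added to each count. Its median over the 7 genes was -0.65, compared with 0.05 over all genes tested. None of the 7 reached a log2 ratio of 2 in size, a 4-fold difference, which 12.5% of the genes tested reached as higher in REH and 8.15% as higher in 697. At a log2 ratio of 1, a 2-fold difference, 0 were higher in REH and 1, GGH, was higher in 697, whereas 22.4% and 17.4% of the genes tested passed in those directions. These shares of the members were no larger than the background in REH and near it in 697. TPMT, at 0.98, lay just under this limit and counted as higher in REH under 3 of the alternatives. The counting intervals of the 7 ratios did not include 0. The scaling of the libraries moved all ratios together. With unscaled library totals each ratio was 0.31 higher, the median of all genes tested became 0.36, and the 7 genes kept their directions relative to 0.

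**Figure D1:**
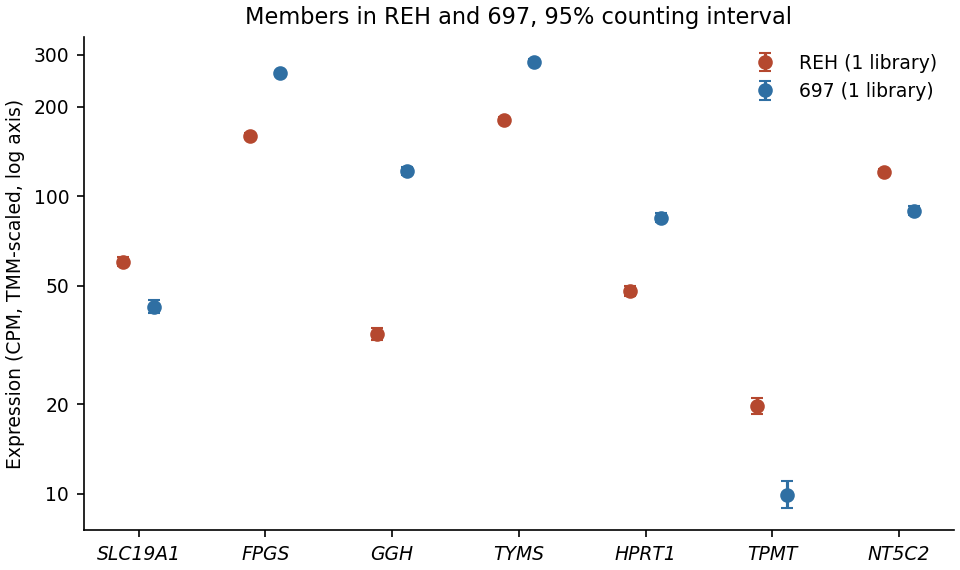
Level of the 7 genes in CPM (log axis) in the REH and 697 libraries, 1 library each, with 95% Wilson counting intervals as bars. SLC19A1, TPMT and NT5C2 were higher in REH and the other 4 in 697, with the widest gap at GGH (34.4 and 122 CPM).

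**Figure D2:**
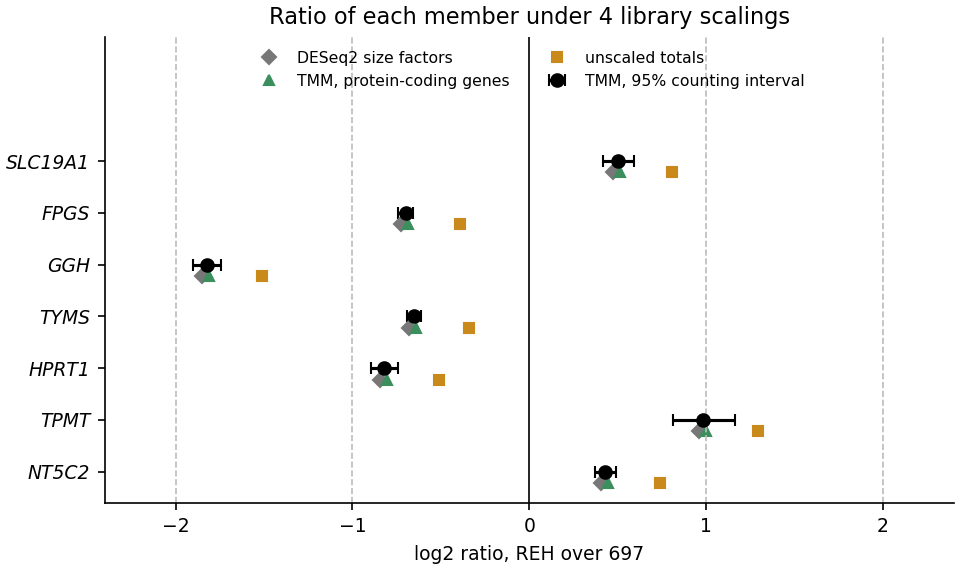
Log2 ratio of REH over 697 for the 7 genes under 4 scalings of the libraries, with the 95% counting interval of the TMM-scaled ratio as bars and dashed lines at 1 and 2 in size. Unscaled totals shifted every gene by 0.31 to the right, and no gene crossed 0.

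Uptake of methotrexate depends mainly on SLC19A1, the reduced folate carrier. SLC19A1 had 3026 reads in REH and 1570 in 697, which are 60.2 CPM (58.1 to 62.4) and 42.5 CPM (40.4 to 44.6). The carrier transcript was 1.42-fold higher in the REH library (1.33 to 1.51), a log2 ratio of 0.50 (0.41 to 0.59). This ratio lay above that of 66.6% of the genes tested, so a difference of this size was common between the libraries.

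Retention of the drug rests on a pair of enzymes with opposite actions, and transcripts of both were higher in 697. FPGS, folylpolyglutamate synthase, adds glutamate residues to folates and methotrexate. It had 8036 reads in REH and 9582 in 697, or 160 CPM (156 to 163) and 259 CPM (254 to 265), a log2 ratio of -0.70 (-0.74 to -0.66). GGH, gamma-glutamyl hydrolase, removes those residues in the lysosome. It had 1730 reads in REH and 4494 in 697, or 34.4 CPM (32.8 to 36.1) and 122 CPM (118 to 125). GGH was 3.53-fold higher in 697 (3.34 to 3.74), a log2 ratio of -1.82 (-1.90 to -1.74), and had the largest difference of the 7 genes. A lower ratio was found for 1746 of the genes tested and a higher one for 17398. Because GGH differed more than FPGS, the balance of their transcripts differed too. REH held 4.65 FPGS reads for each GGH read and 697 held 2.13, a 2.18-fold difference (2.05 to 2.32) that does not depend on library scaling. Such read ratios are not levels per length. Per kb of canonical transcript, FPGS over GGH was 2.54 in REH and 1.17 in 697. These values depend on the length used. Per kb of all annotated exons, FPGS stood at 40.7 CPM per kb in REH and 66.0 in 697, and GGH at 3.24 and 11.5. The number of SLC19A1 reads for each FPGS read was 0.377 in REH and 0.164 in 697, 2.30-fold higher in REH (2.15 to 2.46).

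TYMS encodes thymidylate synthase, which makes the thymidylate needed for DNA synthesis and consumes a reduced folate. It had the highest read count of the 7 genes in both libraries, with 9091 reads in REH and 10488 in 697. These are 181 CPM (177 to 185) and 284 CPM (278 to 289), a log2 ratio of -0.65 (-0.69 to -0.61), so TYMS was 1.57-fold higher in 697. Since TYMS is a gene of dividing cells, it was set beside 15 other transcripts of S phase and proliferation. Of these 13 had a ratio below 0, with a median of -0.52 and a range of -0.78 to 1.39, which includes the ratio of TYMS. With unscaled totals 10 of the 15 were below 0, so the direction of this group depended in part on the scaling. CCNE1, encoding cyclin E1, was the S phase gene past 1, with 1254 reads in REH and 351 in 697.

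Thiopurines are activated by HPRT1, hypoxanthine phosphoribosyltransferase, which joins the purine analog to a ribose phosphate. HPRT1 had 2417 reads in REH and 3134 in 697, or 48.1 CPM (46.2 to 50.04) and 84.8 CPM (81.9 to 87.8). It was 1.76-fold higher in 697 (1.67 to 1.86), a log2 ratio of -0.82 (-0.90 to -0.74). The transcripts of the 2 inactivating enzymes among the 7 genes had ratios on the other side of 0. TPMT, thiopurine methyltransferase, attaches a methyl group to the sulfur atom of these drugs. It had 989 reads in REH and 367 in 697, or 19.7 CPM (18.5 to 20.9) and 9.93 CPM (8.97 to 11.003), with the fewest reads of the 7 genes in each library. TPMT was 1.98-fold higher in REH (1.76 to 2.24), a log2 ratio of 0.98 (0.81 to 1.16). NT5C2, a cytosolic nucleotidase, removes the phosphate from thiopurine and inosine nucleotides. It had 6065 reads in REH and 3307 in 697, or 121 CPM (118 to 124) and 89.5 CPM (86.5 to 92.6), a log2 ratio of 0.43 (0.37 to 0.49).

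The ratio of the transcript of the activating enzyme to that of each inactivating enzyme therefore differed more between the libraries than any of the 3 genes alone. REH held 2.44 HPRT1 reads for each TPMT read and 697 held 8.54, which is 3.49-fold higher in 697 (3.06 to 3.98). For each NT5C2 read there were 0.399 HPRT1 reads in REH and 0.948 in 697, 2.38-fold higher in 697 (2.22 to 2.54), and per kb of canonical transcript 1.01 and 2.39. The NT5C2 count holds only 52.7% of the reads over its exons in REH and 51.5% in 697, so all of these values would be lower if the reads shared with other genes were added. The per kb values also depend on the length used. Per kb of all annotated exons, HPRT1 stood at 29.8 CPM per kb in REH and 52.6 in 697, and NT5C2 at 13.2 and 9.80. Between the inactivating enzymes, the number of TPMT reads for each NT5C2 read was 0.163 in REH and 0.111 in 697, 1.47-fold higher in REH (1.29 to 1.67). The pairs compared share genes, so their ratios are not independent of each other. No alternative treatment of the counts moved a pair beyond its interval.

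The sequence before the transcription start is shown for TYMS and HPRT1, the 2 of the 6 members searched that have a single RefSeq start, both higher in 697. Each window holds the 250 bases before the start on the plus strand of GRCh38.p14, read 5′ to 3′ from the RefSeq promoter table. They are chr18:657403-657652 for TYMS and chrX:134459915-134460164 for HPRT1. Capitals mark the letters of a GC box, GGGCGG, on either strand.
TYMS: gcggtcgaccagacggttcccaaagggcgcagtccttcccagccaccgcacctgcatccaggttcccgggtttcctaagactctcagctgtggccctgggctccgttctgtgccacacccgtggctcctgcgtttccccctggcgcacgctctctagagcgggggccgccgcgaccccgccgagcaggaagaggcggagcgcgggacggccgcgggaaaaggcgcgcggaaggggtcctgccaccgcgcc
HPRT1: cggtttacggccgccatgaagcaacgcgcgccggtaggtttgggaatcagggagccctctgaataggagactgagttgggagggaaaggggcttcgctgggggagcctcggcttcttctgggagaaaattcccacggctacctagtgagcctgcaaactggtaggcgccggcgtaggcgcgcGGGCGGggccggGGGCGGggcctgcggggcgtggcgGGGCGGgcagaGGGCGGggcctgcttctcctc
The HPRT1 window held 4 GC boxes and the TYMS window 0, although 71.2% of the TYMS bases and 68.8% of the HPRT1 bases were G or C. Neither held TATAAA or CCAAT, the letters of a TATA box and a CCAAT box, on either strand. Over all 35116 windows of this length, 42.6% held GGGCGG, 10.7% TATAAA and 32.0% CCAAT. Of 14 windows searched for 6 members, counting alternative starts, 8 held a GC box, 0 a TATA box and 2 a CCAAT box. Some of these windows overlap, so they are not separate sequences. Both with a CCAAT box belong to overlapping windows of FPGS, and the TPMT windows, which hold GC boxes, overlap too. A match of letters is a description of the window and not evidence of binding.

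The reads of NT5C2 and TYMS were counted only in part, because the deposited column drops reads that fall where genes on opposite strands overlap. The same reads are kept in the 2 strand-specific columns, whose sum minus the either-strand count gives the number shared with a gene on the other strand. For TYMS 10220 reads in REH and 11475 in 697 were shared, so the value above holds 47.1% and 47.8% of the reads over its exons. The overlap covers 47.9% of the TYMS exon length and lies with ENOSF1, a gene of the opposite strand with 4144 own reads in REH and 989 in 697, and with TYMSOS. For NT5C2 5434 and 3117 reads were shared, leaving 52.7% in REH and 51.5% in 697, and its partner CNNM2 had 1827 and 432 own reads. The log2 ratio was 1.62 for ENOSF1 and 1.63 for CNNM2, so both partners were more abundant in REH. SLC19A1 shared 232 and 93 reads with COL18A1, and the other 4 genes shared none. Counting the shared reads for the member gave log2 ratios of -0.63 for TYMS, 0.40 for NT5C2 and 0.53 for SLC19A1, close to the values without them. In each library 50.1% to 50.2% of the strand-assigned reads were on the sense strand, so the gene from which a shared read came cannot be told apart. Reads that map to several places, 10.8% of the total in REH and 15.4% in 697, were also left out. How many of them match both a member and a processed copy cannot be told from these counts. Processed copies of these genes drew few reads of their own, with 0 over the HPRT1 copies, 2 and 0 over the TYMS copies, and 8 and 9 over the TPMT copies, which is 0.809% and 2.45% of the TPMT reads.

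**Figure D3:**
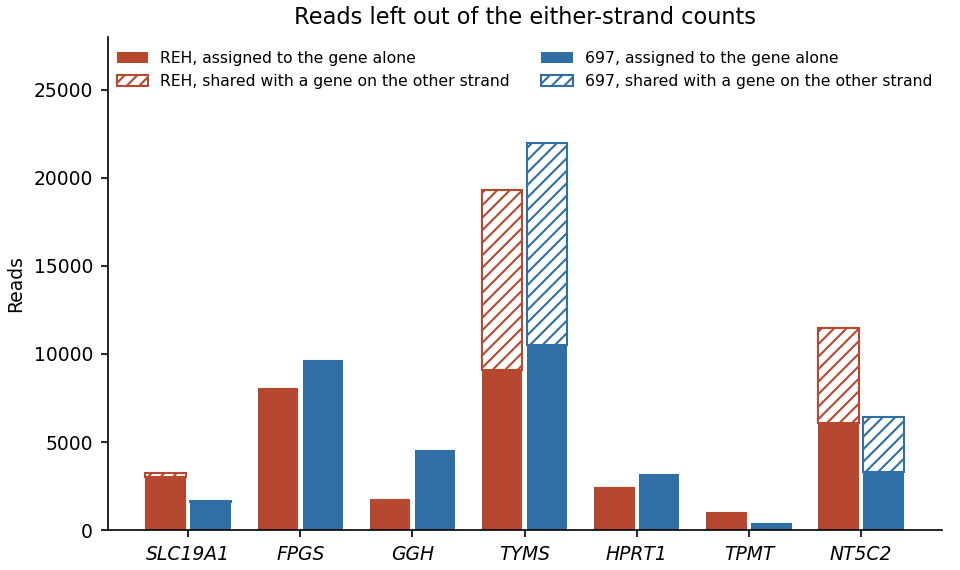
Reads over the exons of each of the 7 genes in the REH and 697 libraries, filled where the read was assigned to that gene alone and hatched where it was shared with a gene on the opposite strand. The hatched share exceeded the filled one for TYMS (10220 of 19311 reads in REH), nearly equalled it for NT5C2, and was 0 for FPGS, GGH, HPRT1 and TPMT.

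Read counts of different genes depend on transcript length, so the order of their levels was taken per kb. Per kb of all annotated exons, the order in REH was TYMS (74.7 CPM per kb), FPGS (40.7), HPRT1 (29.8), NT5C2 (13.2), TPMT (6.18), SLC19A1 (5.36) and GGH (3.24). In 697 the order was TYMS (117 CPM per kb), FPGS (66.0), HPRT1 (52.6), GGH (11.5), NT5C2 (9.80), SLC19A1 (3.78) and TPMT (3.12). GGH thus moved from the lowest place in REH to the middle of the order in 697. The place of GGH depended on the length used, since its annotated exons sum to 10.6 kb and its canonical transcript to 1.25 kb. Per kb of canonical transcript, GGH stood at 27.6 CPM per kb in REH and 97.5 in 697, the fifth and the third place, while TYMS and FPGS held the first 2 places in both libraries. On that scale TYMS lay above 97.1% of the protein-coding genes ranked in REH and 97.3% in 697, and TPMT above 41.5% and 26.6%. HPRT1 and NT5C2 stood at 34.5 and 34.2 CPM per kb in REH, a gap within their counting intervals, but at 60.8 and 25.4 in 697. The shared reads would raise NT5C2 to 64.9 CPM per kb in REH and 49.3 in 697, and TYMS to 238 and 369.

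The neighbours of each gene on its chromosome were examined, since position had not entered the choice of the genes. For each, the 5 tested protein-coding genes on either side were taken, or all 4 where fewer were left before the chromosome end, as for TYMS. The 10 neighbours of HPRT1 had a median log2 ratio of 0.49 and 9 were above 0, so HPRT1, at -0.82, lay below all 10, of which the lowest was PHF6 at -0.26. Of the neighbours of GGH 9 of 10 were below 0, with a median of -0.42, on the same side as GGH itself, but 6 of 10 with unscaled totals. TTPA, the alpha-tocopherol transfer protein gene directly next to GGH, had 0 reads in REH and 640 in 697, and NKAIN3, also next to it, had a log2 ratio of -2.99. PCBP3, next to SLC19A1, had 4 reads in REH and 3258 in 697, while the 10 neighbours of SLC19A1 were split with 5 above and 5 below 0 and a median of 0.27. Around FPGS all 5 neighbours at lower coordinates were above 0 and all 5 at higher coordinates below 0, with FPGS on the side of the latter. The medians were 0.03 around FPGS, -0.23 around TYMS, -0.07 around TPMT and -0.25 around NT5C2. TPMT at 0.98 and NT5C2 at 0.43 were higher than the medians of their neighbours. With unscaled totals the last 3 medians turned positive, to 0.08 around TYMS, 0.23 around TPMT and 0.06 around NT5C2. With 10 neighbours on each side the median became 0.23 around NT5C2, 0.36 around FPGS, -0.72 around GGH and 0.10 around HPRT1. Around SLC19A1 it became 0.65, higher than SLC19A1 itself at 0.50, with 13 of 20 above 0. Copy number was not measured in these data and was not analysed here.

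**Figure D4:**
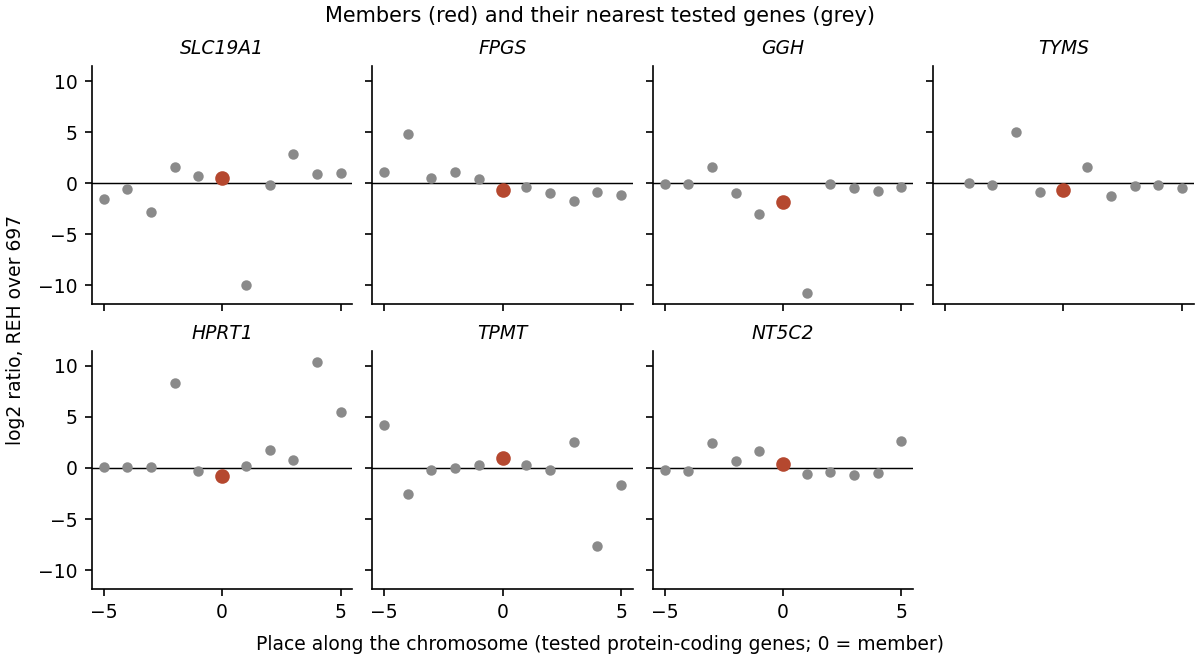
Log2 ratio of REH over 697 for each of the 7 genes (centre) and the tested protein-coding genes up to 5 places to each side along its chromosome. HPRT1 lay below all 10 of its neighbours, and 9 of the 10 neighbours of GGH were below 0 with GGH (6 with unscaled totals).

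The other genes of folate and thiopurine metabolism were taken from 11 pathway lists, which together hold 108 genes and do not include the S phase list. Some genes are in more than 1 list and are counted once in the 108. Of the 108 genes 92 were tested, and their median log2 ratio was -0.57 compared with 0.05 for all genes tested. Of the 92, 26 were above and 66 below 0, beside 9974 and 9171 of the 19145 genes tested. At a log2 ratio of 1, 12 (13.0%) were higher in REH and 24 (26.1%) higher in 697, beside the 22.4% and 17.4% of all genes given above. At a log2 ratio of 2 there were 7 of 92 in each direction, beside 12.5% of all genes as higher in REH and 8.15% as higher in 697. Without the 7 members, 12 and 23 of 85 genes passed 1. With unscaled totals the median was -0.26, while 57 of the 92 stayed below 0 and 15 passed 1 as higher in 697. Of all 19145 genes tested 6876 were then below 0. The 17.4% of all genes past 1 holds for scaled ratios only, and that share with unscaled totals is not given here.

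Genes of purine synthesis and salvage lay mostly on the side of 697. All 13 enzymes of de novo purine synthesis had a ratio below 0, with a median of -0.61, and 12 of them remained so with unscaled totals. IMPDH2, inosine monophosphate dehydrogenase, controls the step towards guanine nucleotides that thiopurine activation also uses. It had 6412 reads in REH and 25179 in 697, or 128 and 682 CPM, 5.34-fold higher in 697. Of the 9 genes of thiopurine activation, HPRT1 and IMPDH2 among them, 8 were below 0, with a median of -0.82. Past 1 as higher in 697 were 4 of them, beside 17.4% of all genes. IMPDH1, IMPDH2, GMPS, PRPS1 and PRPS2 are also among the 13 de novo genes, so these lists are not independent. Of the 4 past 1, IMPDH2 and PRPS2 are shared. Of the 8 tested genes of purine salvage 7 were below 0, with a median of -0.41, but 4 of 8 with unscaled totals. PNP, purine nucleoside phosphorylase, was the purine salvage gene past 1, with 2020 reads in REH and 5193 in 697, a log2 ratio of -1.81.

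The list of thiopurine inactivation, by contrast, was split. Of 7 genes tested 3 were above 0 and 4 below, with a median of -0.37. XDH, xanthine dehydrogenase, which oxidizes mercaptopurine, had 42 reads in REH and 0 in 697. It was 10.3-fold higher in REH against the 3-read floor of 697. This value leaves out the counting error of the 42 reads and is not a lower limit. Among 10 nucleotidases tested, the group to which NT5C2 belongs, 3 passed 1 as higher in REH and 4 as higher in 697. Of all genes 22.4% and 17.4% passed in those directions. The median of the nucleotidases was -0.76. NT5E, the cell surface nucleotidase CD73, had 577 reads in REH and 3474 in 697, a log2 ratio of -3.03. NT5M, a mitochondrial deoxyribonucleotidase, had 232 and 818 reads, a log2 ratio of -2.26. NT5DC1, a nucleotidase-like gene of little known function, went the other way, with 1866 reads in REH and 0 in 697. It was 457-fold higher in REH against the 3-read floor of 697, and the lower limit of its log2 ratio was 8.54. Of the 4 nucleoside transporters tested, with a median of -1.07, SLC29A4 had 665 reads in REH and 0 in 697. This was 163-fold higher in REH against the same floor, and the lower limit of its log2 ratio was 7.05. SLC29A2, an equilibrative nucleoside transporter, had 300 and 1541 reads, a log2 ratio of -2.80.

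On the folate side, 23 genes of the folate cycle were tested. Of these 3 passed 1 as higher in REH and 7 as higher in 697, beside 22.4% and 17.4% of all genes. The median was -0.26, but 0.05 with unscaled totals, where 11 were below and 12 above 0. GLDC, the decarboxylase of the mitochondrial glycine cleavage system, had 321 reads in REH and 5704 in 697, a log2 ratio of -4.59. SARDH, sarcosine dehydrogenase, had 28 and 382 reads, a log2 ratio of -4.19. FTCD, which channels formimino groups of histidine breakdown to folate, had 148 and 15 reads, a log2 ratio of 2.82. The 11 genes of thymidylate and deoxynucleotide supply had a median of -0.54, with 9 below 0. Of these TK2, mitochondrial thymidine kinase, had 1250 reads in REH and 377 in 697, and SAMHD1, which breaks down deoxynucleoside triphosphates, had 164 and 401. Of the 10 folate transport genes only 4 were tested, and 5 had 0 reads in both libraries, and the folate receptor genes FOLR1, FOLR2 and FOLR3 had at most 32 reads. SLC25A32, which carries folate into the mitochondrion, had 1540 reads in REH and 1767 in 697, a log2 ratio of -0.64. SLC46A1, the proton-coupled folate transporter, had 13 reads in REH and 0 in 697, but 505 and 69 when reads shared with SARM1 on the opposite strand were included. The 7 antifolate efflux pumps tested had a median of -0.30, which became 0.01 with unscaled totals. This median was the ratio of ABCC11, which had only 10 reads in REH and 9 in 697. With reads shared with a gene on the opposite strand included, ABCC11 had 357 and 74, a log2 ratio of 1.82. Among the pumps ABCG2 was the most different, with 24 reads in REH and 1484 in 697, or 0.477 and 40.2 CPM, a log2 ratio of -6.37 (-7.04 to -5.82). Without shared reads ABCC1, a multidrug resistance pump, was the efflux pump higher in REH past 1, with a log2 ratio of 1.09. The 2 genes of the polyglutamation list are FPGS and GGH, with a median of -1.26.

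**Figure D5:**
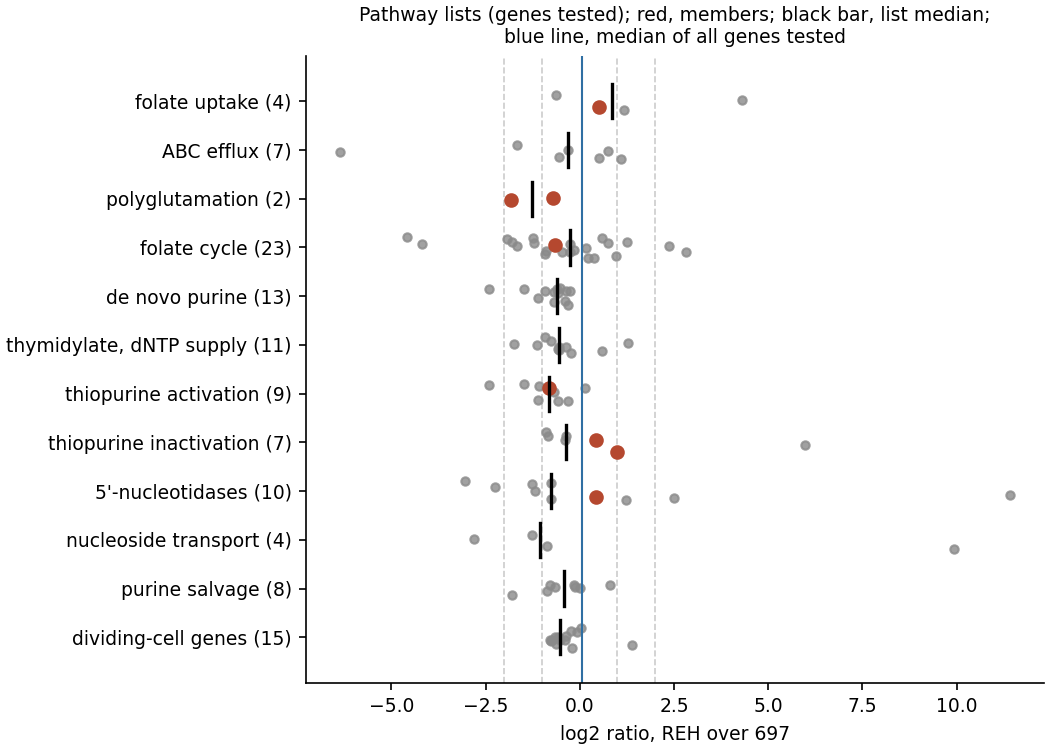
Log2 ratio of REH over 697 for each tested gene (points) of the 11 pathway lists and of the S phase list (dividing-cell genes), 1 list per line of the vertical axis, with the list median as a black bar, the 7 genes described here in red and the median of all genes tested as a blue line. The 13 genes of de novo purine synthesis were all below 0 (12 with unscaled totals), whereas the nucleotidases ranged from -3.03 to values set by 0 reads in 697.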

How the data were processed

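Gene counts deposited by the authors, raw and not normalized, were used from 1 library of REH and 1 of 697, grouped by the cell line in the labels. Per the submitters' processing notes the reads were aligned with STAR and the build was hg19, whereas the methods of the study name hg38. The annotation release is not given in the sources used here. The labels describe ribodepleted, stranded libraries and the methods poly(A) selection. Reads were taken from the either-strand column. Symbols, positions and lengths came from GENCODE 44 (51996 of 57773 identifiers matched) and are not coordinates of the authors. Reads without a gene were left out, and reads assigned to genes were 70.7% of the total in REH and 69.7% in 697.

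A gene was tested if either library held 10 reads or more. Scaling used edgeR 4.0.16 (R 4.3.3) and its trimmed mean of M-values, or TMM, with factors of 1.11 and 0.899. Levels have Wilson intervals, ratios exact Clopper-Pearson intervals and pairs Wald intervals, and a floor of 3 reads was used against 0. Other steps used Python 3.11.15 with scipy 1.17.1, pandas 2.3.3, matplotlib 3.10.9 and numpy 2.4.6, and the ratio and interval code was tested on simulated data. PCR duplicates are not independent molecules. No p-value was computed.

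The members, pairs and lists were chosen with earlier results of these data known. Named list genes were those past a log2 ratio of 2 with at least 100 reads in a library (the 2 largest in each direction where there were over 4), otherwise the largest in each direction past 1. Also named were the members and a gene next to a member past 2. Results on some genes of the pairs and lists are not reported here. XDH, SLC46A1, SLC25A32, the folate receptors, ABCC1, ABCC11, PHF6, NKAIN3 and genes overlapping a member were named after their values were seen. So were the folate cycle enzymes named by compartment, apart from GLDC. Alternatives were DESeq2 1.42.0 size factors, TMM over protein-coding genes, unscaled totals, other read minimums, 5 reads added, the strand columns, other gene lengths and 10 neighbours per side. The canonical transcript length was added after the data were seen.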

Additional observations from a re-analysis of the deposited data

How the results depend on the processing

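The 7 ratios kept their sign in all 56 recomputations over 8 alternatives, and 47 stayed within their counting interval. DESeq2 size factors, TMM over protein-coding genes and a minimum of 1 read moved no result beyond its interval. With library totals without scaling, the log2 ratios were 0.81 for SLC19A1, -0.39 for FPGS, -1.51 for GGH, -0.34 for TYMS, 1.29 for TPMT, -0.51 for HPRT1 and 0.74 for NT5C2, the median of the 7 was -0.34, 1 of them passed 1 as higher in REH, and for the pathway lists 15 genes passed 1 as higher in 697 and the median was -0.26. These shifts follow from the scaling itself, and the share of all genes past 1 under that setting is not given here. In the last strand column the ratio was 0.64 for SLC19A1 and -0.60 for TYMS, and the median of the 7 was -0.60. With at least 50 reads, where its counts stayed the same and only the scaling changed, 1 member (TPMT) passed 1 as higher in REH, at 1.003. It also passed 1 in the first strand column, at 1.07, where both the counts and the scaling differ. Of the pathway genes past 2 as higher in REH, 7 in the report, 3 were left with at least 50 reads, where fewer genes are tested, and 4 with 5 reads added, which pulls low counts together. Levels per kb of the longest transcript, for REH and 697, were 12.1 and 8.51 for SLC19A1, 70.0 and 114 for FPGS, 6.59 and 23.3 for GGH, 112 and 176 for TYMS, 34.5 and 60.8 for HPRT1 and 24.5 and 18.2 for NT5C2. The canonical transcript gave the same values except 27.6 and 97.5 for GGH and 34.2 and 25.4 for NT5C2. With 10 neighbours on each side the median was 0.36 around FPGS, -0.72 around GGH, 0.10 around HPRT1 and 0.23 around NT5C2. No paired analysis was possible because REH and 697 have a single library each, and leaving out a replicate was not possible for the same reason. With 1 library per line, depth limits the counting error only, which is smallest for TYMS and FPGS and widest for TPMT among the 7 genes, and the spread between cultures, which could be larger, was not measured.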

Other observations

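The enzymes of the folate cycle work in the mitochondrion and in the cytosol, and were grouped by compartment after their values were seen. Of 13 mitochondrial enzymes tested, 9 had a log2 ratio of REH over 697 below 0, with a median of -0.48. At a log2 ratio of 1, 5 were higher in 697 and 1 higher in REH, beside 17.4% and 22.4% of all genes tested. Their summed level was 665 CPM in REH and 1628 CPM in 697. SHMT2, mitochondrial serine hydroxymethyltransferase, had 14663 reads in REH and 20590 in 697, a log2 ratio of -0.93. MTHFD2 and MTHFD1L, which carry the serine-derived unit on to formate, had log2 ratios of -1.65 and -1.93. AMT, which works with GLDC in glycine cleavage, had 234 reads in REH and 600 in 697. MTHFD2L, GCSH, DMGDH and ALDH1L2 had ratios above 0, with ALDH1L2 at 17 and 2 reads. With unscaled totals 7 of the 13 were below 0. Of 10 cytosolic enzymes tested 5 were below 0 and 5 above, with a median of 0.11, and 2 passed 1 in each direction. Their summed level, 622 CPM in REH and 937 CPM in 697, was also higher in 697. SHMT1, the cytosolic counterpart of SHMT2, had 2873 reads in REH and 1415 in 697, a log2 ratio of 0.58. MTR, methionine synthase, had 4927 and 8332 reads, a log2 ratio of -1.20. The difference between the compartments was not tested.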
